A study of Sus scrofa with 24 samples.

Results

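Flagellin was compared with PBS after 2 h of exposure in cultured pig airway epithelium, the layer of ciliated, secretory and basal cells that lines the bronchi. The comparison used 8 of the 24 RNA libraries of the study, chosen by their labels: 4 given PBS for 2 h and 4 given flagellin for 2 h. Cells came from the bronchi of wild type pigs aged 1 month, were seeded on collagen-treated membranes, and differentiated with their upper side in air. All 8 cultures had first been kept for 1 h in DMSO, the solvent of SB203580, so both arms carried it. Flagellin was then given at 100 ng/ml. The other 16 libraries, which also entered the fit as described for each result, were the same pair of treatments at 24 h and flagellin after 20 µM SB203580, a p38 MAP kinase inhibitor, at 2 h and 24 h.

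Flagellin is the protein that makes up the filament of the bacterial flagellum. Epithelial cells sense it through TLR5, a receptor that passes the signal through the adaptor MYD88 and the kinases of the IRAK family to TRAF6. From there the IκB kinases release NF-κB from its inhibitors, and MAP kinases are switched on in parallel. NF-κB then drives genes of chemokines, cytokines and adhesion molecules, and also the genes of its own inhibitors, which end the response. The airway epithelium is known for calling neutrophils in this way. The labels give no purpose for the 2 h time point beyond the comparison itself.

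The 8 libraries held 26345945 to 36267289 pig gene counts each, and 15886 to 16449 genes had a count. Levels below are CPM, counts scaled to a common library size with edgeR's TMM factors, and the upper limit that a count of 0 leaves (3 counts) came to 0.0827 to 0.114 CPM, which covers counting error only. Replicates 1 and 2 and replicates 3 and 4 formed 2 sets that did not come from the same animals. The Y-linked gene EIF1AY had 727 to 983 counts in replicates 1 and 2 and 0 in all libraries of replicates 3 and 4, and KDM5D had 118 to 138 against 0. The labels do not say whether the libraries within a set were separate animals or cultures, so p-values here speak only of the spread between libraries, and that spread may be technical. Basal cell markers had a mean log2 CPM of 5.09 to 5.39 over the 8 libraries. Ciliated cell markers were low, at 0.09 to 2.13, and 3 of the 14 found were under 1 CPM in all 8 libraries. Squamous epithelium markers had a mean log2 CPM of 7.41 to 8.23 in replicates 1 and 2 and 4.64 to 5.46 in replicates 3 and 4.

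One library stood apart within its set. PBS replicate 2 had a mean log2 CPM of 0.09 over the ciliated cell markers, against 1.89 in PBS replicate 1 and 2.11 and 2.13 in the paired flagellin libraries. Its goblet cell markers were at 4.98, against 6.91 in PBS replicate 1 and 6.64 and 6.26 with flagellin, and its club and secretory markers at 5.99, against 7.04, 7.04 and 7.11. In replicates 3 and 4 the ciliated markers went the other way, from 1.67 and 0.85 with PBS to 0.83 and 0.24 with flagellin. The part of these differences in the results was not tested. In bulk cultures fewer cells of a type and less RNA per cell cannot be told apart. No gene of the lists for basal, club, goblet, ciliated, squamous, ionocyte, fibroblast or endothelial cells passed the test of flagellin against PBS. With 1.85% of all genes called, a count of 0 in each of these short lists is near the background. Of the leukocyte markers, CD163, C1QB, C1QC, CD3E, CD8A, CD8B and MPO had 0 counts in all 8 libraries, but not all such markers were absent. The 4 neutrophil markers that were tested summed to 895, 631, 316 and 315 CPM with PBS and 775, 813, 385 and 346 with flagellin. Most of that was S100A12, at 216 to 569 CPM with PBS and 275 to 567 with flagellin, and S100A8, at 79.5 to 231 and 58.6 to 178 CPM, genes that squamous epithelium also expresses. The 3 tested markers of T, B and NK cells summed to 2.31 to 3.26 CPM with PBS and 2.95 to 3.75 with flagellin. Bacterial features in the same table, left out of the fit, were uneven: they came to 51.4, 28.0, 46.3 and 4.36 CPM with PBS and 1.398, 2.34, 7.43 and 49.5 with flagellin, and their part in the results was not tested.

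Within 2 h flagellin raised 168 genes and lowered 94 of the 14172 tested, and among these the rises were far larger than the falls. An unadjusted p under 0.05 in edgeR was reached by 1906 genes (13.4%), so the number called depends on the threshold and is not the size of the response. The 262 genes called make up 1.85% of those tested, the raised genes 1.19% and the lowered genes 0.663%. Genes were called at an adjusted p under 0.05 in edgeR's quasi-likelihood test, with all 24 libraries fitted together and each replicate number at each time as a block, so that flagellin and PBS libraries of the same number were matched. Of the raised genes, 63 rose at least 2-fold, 32 at least 4-fold and 18 at least 8-fold, while 46 rose by less than 1.5-fold. No gene fell as much as 2-fold, and 87 of the 94 lowered genes fell by less than 1.5-fold. The median log2 fold change was 0.83 for the raised and -0.39 for the lowered genes, beside -0.00 for all genes tested. All 4 pairs moved upward for 165 of the 168, and all 4 pairs downward for 92 of the 94.

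In 117 of the raised genes every flagellin library lay above every PBS library, a pattern that 2.42% of all tested genes showed. In 62 of the lowered genes every flagellin library lay below every PBS library, which 2.24% of all genes showed. Together the raised genes took 1.15% to 1.28% of all counts in the PBS libraries and 2.45% to 2.67% in the flagellin libraries. The genes were chosen by a test that used these libraries, so these values and the counts of pairs above are a description. The calls depended on the matching of replicates: without the replicate block 42 genes were raised and 4 lowered, all of them among those above. Without PBS replicate 3, 86 genes were raised, and without flagellin replicate 3, 101, all of them among the 168. Without PBS replicate 2, the library that stood apart, 146 were raised, of which 123 were among the 168. The lowered genes numbered 9 to 159 when 1 library was left out: 37 without PBS replicate 1, 31 without PBS replicate 2, 9 without PBS replicate 3 and 159 without PBS replicate 4, then 12, 29 and 11 without flagellin replicate 1, 2 and 3. Called in each of the 8 fits that left out 1 library were 82 raised and 7 lowered genes.

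**Figure D1:**
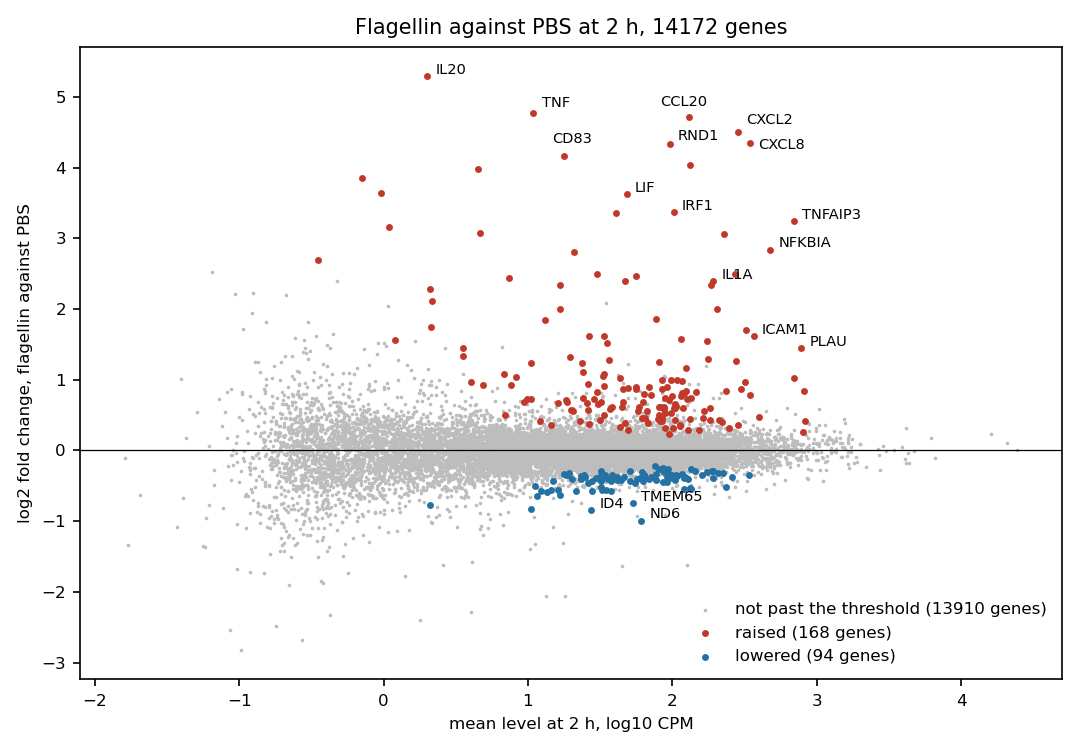
Each point is 1 tested gene with a count in the 8 libraries, with its mean level over the 8 libraries (log10 CPM) on the horizontal axis and the log2 fold change of flagellin against PBS at 2 h on the vertical axis. The 168 raised genes (red) reach from small changes to a log2 fold change of 5.30, while the 94 lowered genes (blue) stay between 0 and -0.99.

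The receptor itself did not pass the test, and most of its signalling chain did not either. TLR5 was a rare transcript, at 0.93, 0.375, 0.875 and 0.958 CPM with PBS and 0.769, 0.782, 1.12 and 1.05 with flagellin in replicates 1 to 4. The groups overlapped, and its log2 fold change was 0.27 ± 0.26 (SE, adjusted p = 0.719, edgeR). MYD88, the adaptor of TLR5, lay at 99.9 to 121 CPM with PBS and 110 to 119 with flagellin, with a log2 fold change of 0.04. Of the 27 tested genes of the receptor and proximal signalling list, 6 rose and none fell, with a list median log2 of 0.08.

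The 6 that rose were a kinase of the MAP kinase arm, a kinase-like signalling protein, another receptor and 3 adaptors. MAP3K8, the kinase TPL2 that links the IκB kinases to ERK, was at 38.5, 21.3, 8.61 and 6.4 CPM with PBS and 149, 127, 58.3 and 38.9 with flagellin. Each flagellin library exceeded each PBS library, and the log2 fold change was 2.46 ± 0.23 (SE, adjusted p = 1.36e-05, edgeR). IRAK2, which sustains the signal of MYD88 complexes, went from 19.3, 15.3, 11 and 7.39 CPM to 34.4, 28.1, 52.3 and 42.9, again with no overlap (log2 1.61 ± 0.30, adjusted p = 0.0107, edgeR). TLR2, the receptor of bacterial lipoproteins, rose from 1.19 to 3.2 CPM over the PBS libraries to 4.63 to 5.61 over the flagellin libraries (log2 1.44). The ubiquitin ligases TRAF6 and TRAF3 rose by log2 values of 0.46 and 0.45, and TIRAP, a bridging adaptor, by 0.41. These 3 were higher in 4 of 4 pairs, though the groups overlapped because replicates 3 and 4 had higher levels in both arms.

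None of these 6 was called without the replicate block, and 2 were with a block common to both times, where IRAK2 (adjusted p = 0.139), TRAF6 (0.412), TRAF3 (0.291) and TIRAP (0.355) were not (edgeR). IRAK2 was not called without PBS replicate 3 (adjusted p = 0.0846) or flagellin replicate 3 (0.0604), TLR2 not without PBS replicate 3 (0.0665) and TIRAP not without flagellin replicate 4 (0.0522), all from edgeR. TRAF3 and TRAF6 were each not called in 6 of the 8 fits that left out 1 library: TRAF3 without PBS replicate 1 (0.0606), 3 (0.143) or 4 (0.0549) and flagellin replicate 1 (0.104), 2 (0.0676) or 4 (0.0602), and TRAF6 at 0.14, 0.143, 0.113, 0.12, 0.132 and 0.113 without the same libraries.

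Of the 5 NF-κB subunit genes 3 rose, all about 2-fold, and the other 2 were higher in 4 of 4 pairs without passing. RELB and NFKB2, the pair of the non-canonical pathway, had log2 fold changes of 1.06 ± 0.16 (SE, adjusted p = 0.00129, edgeR) and 1.00 ± 0.12 (adjusted p = 0.000189). NFKB1, which encodes the p105 precursor and the p50 subunit, was even across the PBS libraries at 56.1, 57.4, 63.1 and 66.9 CPM. With flagellin it was at 78.1, 75.9, 194 and 197 CPM, so that all 4 rose but replicates 3 and 4 far more (log2 0.99 ± 0.17, adjusted p = 0.00588, edgeR). RELA, the main transactivating subunit, was at 112, 123, 108 and 127 CPM with PBS and 143, 141, 143 and 150 with flagellin. Its libraries did not overlap, yet the change was small and not called (log2 0.30 ± 0.11, adjusted p = 0.197, edgeR). REL, named here after its values were seen, had a log2 fold change of 0.75 and an adjusted p of 0.0779 in edgeR. RELB and NFKB2, but not NFKB1, were called without the replicate block, and NFKB2 alone when the 8 libraries were fitted by themselves (adjusted p of 0.0708 for RELB and 0.205 for NFKB1, edgeR).

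By number, the inhibitors and feedback regulators of NF-κB were the list with the most raised members, though the lists differed in size. Of its 22 tested members, 12 rose and none fell, with a list median log2 of 0.77. Among all genes tested 1.19% were raised. TNFAIP3, which encodes the ubiquitin-editing protein A20, was at 152, 151, 109 and 116 CPM with PBS and 1454, 1455, 1180 and 941 with flagellin. Its mean went from 132 ± 22.8 to 1258 ± 248 CPM (SD, n = 4), and edgeR gave a log2 fold change of 3.25 ± 0.15 (SE) with an adjusted p of 1.36e-09. The 4 pairs rose alike, and every flagellin library was far above every PBS library.

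NFKBIA, which encodes IκBα, the inhibitor that holds NF-κB in the cytoplasm, was at 187, 137, 63.6 and 68.2 CPM with PBS. With flagellin it was at 1244, 1235, 564 and 332 CPM, and its log2 fold change was 2.84 ± 0.23 (SE, adjusted p = 2.83e-06, edgeR). Replicates 1 and 2 were higher in both arms, so the level differed by set while the size of the rise was near in both, at log2 2.95 in replicates 1 and 2 and 2.75 in replicates 3 and 4. The nuclear IκB proteins rose with it: NFKBID by log2 2.80 ± 0.16 (SE, adjusted p = 3.88e-08, edgeR), NFKBIZ by 2.49 and BCL3 by 1.61. NFKBIE, a further cytoplasmic inhibitor, rose from 27.4 to 37.3 CPM over the PBS libraries to 104 to 141 over the flagellin libraries (log2 1.86).

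Apart from TNFAIP2, the other raised members act on ubiquitin signalling and cell survival downstream of TNF and Toll-like receptors. TNFAIP2, an NF-κB-induced gene of the exocyst family, was at 90.9, 46.9, 33.5 and 34 CPM with PBS and 416, 342, 410 and 456 with flagellin (log2 3.06 ± 0.24, SE, adjusted p = 2.9e-06, edgeR). BIRC3, the ubiquitin ligase cIAP2, rose from 118 to 183 CPM to 437 to 547 CPM (log2 1.70 ± 0.10, adjusted p = 4.88e-08, edgeR). TNIP1, the partner of A20, rose by log2 0.84, the deubiquitinase OTUD1 by 0.83, the caspase 8 inhibitor CFLAR by 0.72 and the adaptor TRAF2 by 0.66. Of the inhibitors that did not pass, CYLD had a log2 fold change of -0.03, ITCH of -0.10 and NFKBIB of 0.36.

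Of these 12, 7 were called without the replicate block: TNFAIP3, TNFAIP2, NFKBIA, NFKBID, NFKBIE, BIRC3 and TNIP1. Leaving out replicate 3 of PBS or of flagellin ended the calls of BCL3 (adjusted p = 0.0864 and 0.0605, edgeR) and TNIP1 (0.0732 and 0.0635), and leaving out PBS replicate 3 that of OTUD1 (0.0589). CFLAR was not called with a block common to both times (0.166).

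Chemokine genes held some of the steepest rises, but in 6 of 17 tested members, and none fell (list median log2 0.21). CXCL8, the main neutrophil attractant of epithelium, was at 51.4, 46.1, 22.6 and 13.2 CPM with PBS and 608, 617, 755 and 638 with flagellin. The PBS libraries of replicates 3 and 4 were the lowest, the 4 flagellin libraries were close together, and the groups were far apart (log2 4.35 ± 0.42, SE, adjusted p = 3.47e-05, edgeR). CXCL2, another neutrophil attractant, went from 88.4, 30.9, 8.47 and 7.12 CPM to 699, 647, 433 and 355 CPM (log2 4.50 ± 0.47, adjusted p = 9.41e-05, edgeR). CCL20, named by position, draws dendritic cells and lymphocytes through CCR6. It was at 29.7, 16.2, 2.59 and 2.24 CPM with PBS and 320, 271, 207 and 195 with flagellin (log2 4.72 ± 0.55, adjusted p = 0.000296, edgeR).

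AMCF-II, a pig neutrophil chemokine, was at 20.1, 4.13, 4.8 and 3.32 CPM with PBS and 57.3, 51.7, 90.2 and 92.7 with flagellin (log2 3.36 ± 0.52, adjusted p = 0.00324, edgeR). CCL2, the monocyte attractant, went from 22.8, 15.6, 2.84 and 4.94 CPM to 58.9, 59.5, 42.6 and 31.7 CPM (log2 2.49 ± 0.44, adjusted p = 0.00768, edgeR). In both genes each flagellin library exceeded each PBS library. CXCL16, a membrane-bound chemokine named by position, rose modestly from a high level, from 156 to 189 CPM over the PBS libraries to 222 to 254 CPM (log2 0.43).

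Chemokines that interferon induces were low and did not pass: CXCL10 was at 4.87, 1.56, 1.09 and 3.14 CPM with PBS and 5.1, 5.62, 1.5 and 4.7 with flagellin, with an adjusted p of 0.529 in edgeR. CXCL9 had at most 5 counts in any library and was not tested. CXCL8 was the 1 chemokine called without the replicate block, and CXCL16 the 1 called when the 8 libraries were fitted alone, where CXCL8 had an adjusted p of 0.0600, CXCL2 of 0.0887, CCL20 of 0.100, AMCF-II of 0.145 and CCL2 of 0.149. With a block common to both times CXCL16 had an adjusted p of 0.0779. In the fit of all libraries CCL2 was not called without PBS replicate 3 (adjusted p = 0.0597, edgeR).

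Among cytokines and colony-stimulating factors 7 of 26 tested members rose and none fell, with a list median log2 of 1.06. IL1A, the alarm cytokine that epithelial cells store and release, was already present with PBS at 45.6, 47.7, 98.1 and 61.7 CPM. It reached 321, 299, 353 and 310 CPM with flagellin, close to the same level in each library (log2 2.40 ± 0.15, SE, adjusted p = 1.65e-07, edgeR). TNF, named by position, was at 3.68, 0.469, 0.245 and 0 CPM with PBS and 33.3, 40.8, 6.15 and 2.44 with flagellin. All 4 pairs rose, but the lowest flagellin library was below PBS replicate 1 (log2 4.77 ± 0.80, adjusted p = 0.0054, edgeR).

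LIF, a cytokine of the IL-6 family, went from 19, 6.35, 3.89 and 3.8 CPM to 131, 107, 69.1 and 45.7 CPM (log2 3.62 ± 0.36, adjusted p = 4.96e-05, edgeR). CSF1, the growth factor of macrophages, went from 14, 12.4, 12.6 and 19.1 CPM to 68.1, 54.5, 91.6 and 102 CPM (log2 2.40 ± 0.22, adjusted p = 1.36e-05, edgeR). Neither gene overlapped between groups. CSF2, which encodes GM-CSF, was at 4.02, 12.2, 2.77 and 3.86 CPM with PBS and 27.6, 29.4, 8.97 and 15.4 with flagellin. Its groups overlapped through the single high PBS library, while 4 of 4 pairs rose (log2 1.85 ± 0.28, adjusted p = 0.00183, edgeR). TNFSF15, named by position, encodes the TNF family member TL1A and rose from 4.6 to 6.09 CPM to 13.9 to 46.1 CPM (log2 2.34).

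IL20, a cytokine of the IL-10 family that acts on epithelium, had the highest fitted log2 fold change of all called genes, 5.30, from a level near the floor of counting. It was at 0.26, 0.25, 0 and 0 CPM with PBS and 5.14, 4.72, 1.84 and 3.91 with flagellin. Several cytokines often measured in airway inflammation were rare here. IL6 stayed under 1 CPM in all 8 libraries, at 0.0599 to 0.344 with PBS and 0.312 to 0.594 with flagellin, and CSF3, which encodes G-CSF, reached at most 1.56 CPM. Both were higher in 4 of 4 pairs and neither passed, with adjusted p of 0.27 and 0.205 in edgeR. IL17C, named by position, lay at 0 to 0.112 CPM with PBS and 0.0566 to 0.461 with flagellin (adjusted p = 0.192, edgeR), so that most libraries were near or under the floor. IL1B, named by position, had 0 counts in the 4 PBS libraries and 3, 1, 1 and 1 counts with flagellin, too few to test. Without the replicate block IL20, IL1A, CSF1 and TNFSF15 were called.

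**Figure D2:**
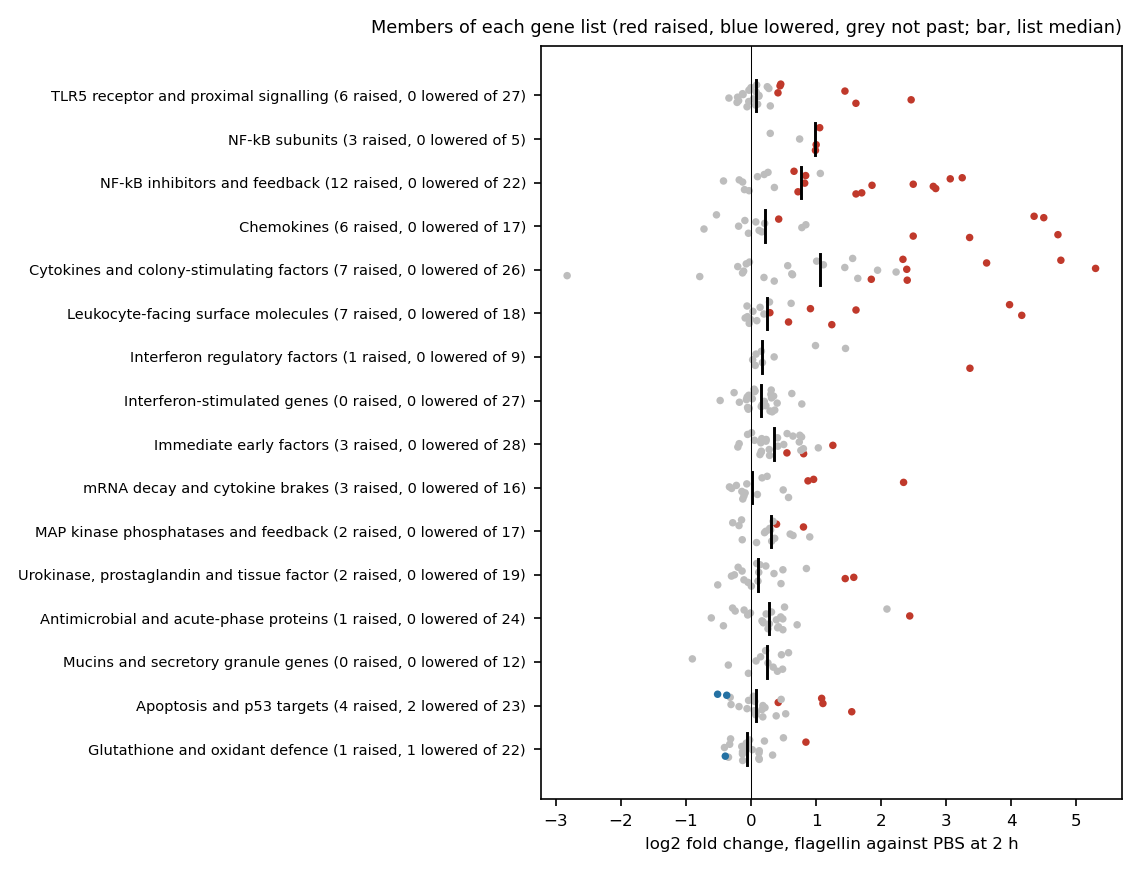
Each point is 1 tested gene of the list named on the left, at its log2 fold change of flagellin against PBS at 2 h, coloured red if raised, blue if lowered and grey if not past an adjusted p of 0.05. The black bar is the list's median. In the list of NF-κB inhibitors and feedback regulators 12 of 22 genes were raised, and among interferon-stimulated genes 0 of 27. With 1.85% of all genes called, a count of 0 in a list of this size is near the background.

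Surface molecules that contact leukocytes rose in 7 of 18 tested members and none fell, with a list median log2 of 0.24. CD83, a membrane glycoprotein best known from mature dendritic cells, was at 1.6, 2.63, 1.82 and 1.5 CPM with PBS and 38.3, 29.1, 39.1 and 28.6 with flagellin. The ranges of the 2 sets overlapped in both arms, and the log2 fold change was 4.16 ± 0.25 (SE, adjusted p = 4.88e-08, edgeR). ICAM1, the ligand of leukocyte β2 integrins, was at 103, 182, 191 and 219 CPM with PBS and 364, 349, 710 and 814 with flagellin (log2 1.61 ± 0.20, adjusted p = 0.000325, edgeR). VCAM1, which binds α4 integrins, was at 2.01, 0.876, 0.035 and 0.12 CPM with PBS and 9.78, 13.1, 4.25 and 5.92 with flagellin (log2 3.98 ± 0.50, adjusted p = 0.000309, edgeR). Both adhesion molecules were raised in all 4 pairs with no overlap, ICAM1 as an abundant and VCAM1 as a rare transcript.

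ICOSLG, named by position, a T cell costimulator, rose by log2 0.91, CD40 by 0.58 and the junction protein F11R by 0.29. CD14, the lipopolysaccharide co-receptor and also a macrophage marker, was at 30.9, 13.2, 6.97 and 8.77 CPM with PBS and 53, 38.5, 21.5 and 18 with flagellin (log2 1.24). Of 13 macrophage and dendritic cell markers found, 8 were under 1 CPM in all 8 libraries and CD14 was the 1 that was called. The summed level of the 6 tested markers was 26.5 to 50.7 CPM with PBS and 40.0 to 74.8 CPM with flagellin. CD14 and F11R were not called in any of the 8 fits that left out 1 library, with adjusted p of 0.0594 to 0.205 and 0.066 to 0.234 in edgeR. CD83 and ICAM1 were called without the replicate block, and CD40 and F11R were not called with a block common to both times (adjusted p = 0.237 and 0.355, edgeR).

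IRF1 was the 1 interferon regulatory factor of 9 tested that rose. It was at 24.3, 21.1, 14.5 and 13.5 CPM with PBS and 220, 199, 177 and 148 with flagellin, and had the lowest adjusted p of the genes named here (log2 3.37 ± 0.13, SE, adjusted p = 2.56e-10, edgeR). None of 27 tested interferon-stimulated genes was called at 2 h, and their median log2 was 0.16; with 1.85% of all genes called, a count of 0 in a list of this size is near the background. Without PBS replicate 1 edgeR called 1 of them as lowered, and in replicates 3 and 4 alone 2. Their libraries spread widely: ISG15, named after its values were seen, was at 34.2, 28.7, 18.1 and 69.3 CPM with PBS and 106, 87.2, 10 and 25 with flagellin, higher in replicates 1 and 2 and lower in replicates 3 and 4.

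Immediate early factors, genes that many stimuli switch on within minutes, rose in 3 of 28 tested members and none fell. Their median log2 was 0.35, beside -0.00 for all genes. DESeq2 called 7 as raised, and edgeR 8 in replicates 3 and 4 alone. IER3, an NF-κB target that protects from apoptosis, was at 140, 136, 201 and 173 CPM with PBS and 436, 408, 379 and 331 with flagellin (log2 1.26 ± 0.18, SE, adjusted p = 0.000844, edgeR). CEBPD, a transcription factor of the acute-phase response, rose by log2 0.81 and EGR1 by 0.55. FOS was at 125, 79.9, 94.7 and 79 CPM with PBS and 82.3, 161, 107 and 111 with flagellin, which overlapped (adjusted p = 0.612, edgeR). ATF3 was already at 216 to 256 CPM with PBS and at 228 to 389 with flagellin (adjusted p = 0.348, edgeR). EGR1 was not called without PBS replicate 2, 3 or 4 or flagellin replicate 2, 3 or 4 (adjusted p = 0.0692 to 0.169, edgeR), nor with a block common to both times (0.486), and none of the 3 was called without the replicate block.

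The proteins that destroy cytokine mRNAs rose in part. ZC3H12A, the ribonuclease regnase-1, went from 101, 62, 40.8 and 48.3 CPM to 381, 345, 261 and 241 CPM (log2 2.35 ± 0.17, SE, adjusted p = 4.4e-07, edgeR). ZFP36, which encodes tristetraprolin and marks AU-rich mRNAs for decay, was abundant with PBS at 302, 254, 148 and 155 CPM and reached 484, 602, 364 and 230 CPM. It rose in each pair although the groups overlapped (log2 0.96 ± 0.19, adjusted p = 0.0166, edgeR). ZC3H12C rose by log2 0.88, and these were the 3 raised of 16 tested. SOCS3, a brake on cytokine receptors, was at 2.3 to 5.76 CPM with PBS and 3.4 to 7.24 with flagellin and did not pass (adjusted p = 0.479, edgeR).

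Of 17 feedback regulators of MAP kinases 2 rose: PPP1R15A, which encodes the stress phosphatase subunit GADD34, by log2 0.81, and SPRED2, an inhibitor of ERK signalling, by 0.39. DUSP1, the phosphatase that switches off p38 and JNK, was at 352, 274, 211 and 204 CPM with PBS and 260, 340, 257 and 233 with flagellin (log2 0.09, adjusted p = 0.87, edgeR). ZC3H12A was the 1 gene of these decay and feedback lists called without the replicate block. ZFP36 was not called without PBS replicate 1, 2 or 3 or flagellin replicate 2 or 3 (adjusted p = 0.061 to 0.114, edgeR), ZC3H12C without replicate 3 of either group (0.0841 and 0.0605), and PPP1R15A without PBS replicate 3 (0.0817) or flagellin replicate 2 (0.0671). SPRED2 was not called in the 6 fits without PBS replicate 2, 3 or 4 or flagellin replicate 1, 3 or 4 (0.0602 to 0.197). With a block common to both times ZC3H12C had an adjusted p of 0.0753 and PPP1R15A of 0.0997.

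The urokinase receptor pair rose together within a list of 19 tested genes in which no other gene passed. PLAU, which encodes urokinase, the protease that activates plasminogen, was at 520, 419, 305 and 444 CPM with PBS and 1058, 1130, 1258 and 1079 with flagellin (log2 1.45 ± 0.19, SE, adjusted p = 0.000503, edgeR). PLAUR, its receptor, was at 50.4, 69.9, 47.3 and 64.3 CPM with PBS and 161, 175, 168 and 185 with flagellin (log2 1.58 ± 0.14, adjusted p = 4.51e-06, edgeR). In both genes the flagellin libraries were close to each other and above all PBS libraries. PTGS2, the inducible cyclooxygenase of prostaglandin synthesis, was at 58.6, 71.6, 155 and 101 CPM with PBS and 82.5, 92.8, 325 and 299 with flagellin. Each pair was higher, but the sets differed in level and the gene did not pass (log2 0.85 ± 0.40, adjusted p = 0.372, edgeR). Without the replicate block PLAUR was called and PLAU was not.

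Among the 20 named genes that rose most with 4 of 4 pairs higher, RND1, SNAI1, GPR35 and MYBPH belonged to none of these lists. RND1, a small GTPase that loosens the actin cytoskeleton and cell adhesion, was at 21.6, 17.3, 2.98 and 3.56 CPM with PBS and 254, 226, 131 and 110 with flagellin (log2 4.34 ± 0.27, SE, adjusted p = 1.71e-07, edgeR). SNAI1, a repressor of epithelial adhesion genes, was at 1, 2.28, 0.42 and 0.359 CPM with PBS and 11.9, 14.6, 2.78 and 4.19 with flagellin (log2 3.07 ± 0.32, adjusted p = 3.26e-05, edgeR). The receptor gene GPR35 was at 0 to 0.298 CPM with PBS and 0.708 to 1.74 with flagellin (log2 3.86). MYBPH, a myosin-binding protein of muscle, was at 0.669, 0.0626, 0.105 and 0.0299 CPM with PBS and 3.11, 3.97, 0.469 and 0.312 with flagellin. RND1, SNAI1 and GPR35 did not overlap between groups, whereas MYBPH did and was not called in any of the 8 fits that left out 1 library (adjusted p = 0.0508 to 0.145, edgeR).

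**Figure D3:**
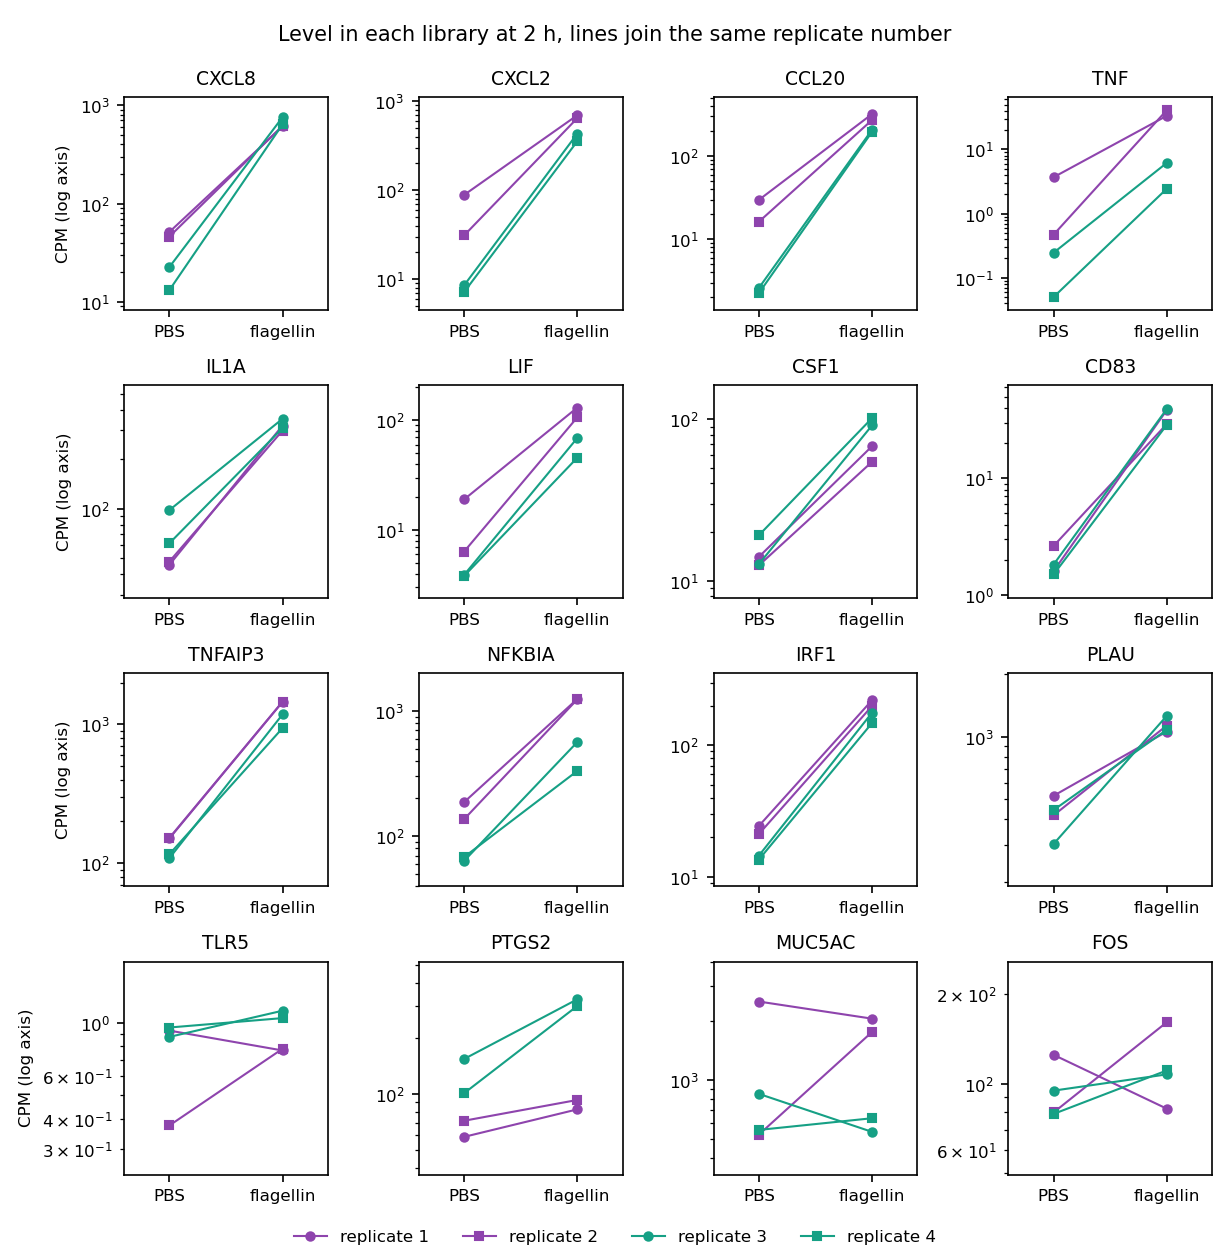
The level of 16 genes in each of the 8 libraries (CPM, log axis; a library at 0 is drawn at 0.05), with lines joining PBS and flagellin libraries of the same replicate number (purple, replicates 1 and 2; green, replicates 3 and 4). The first 12 panels are raised genes, in which all 4 lines rise; TLR5, PTGS2, MUC5AC and FOS in the bottom row did not pass the test.

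At 2 h 1 gene of antimicrobial defence and none of mucus passed the test. With 1.85% of all genes called, such counts are near the background in lists of this size. Of 24 tested antimicrobial and acute-phase genes 1 rose, PGLYRP2, which encodes an amidase that cleaves bacterial peptidoglycan. It was at 2.6, 3.13, 1.61 and 1.74 CPM with PBS and 10.1, 10.1, 14 and 16.2 with flagellin (log2 2.44 ± 0.40, SE, adjusted p = 0.00344, edgeR). SAA3, named by position, an acute-phase protein, was at 37.6, 5.44, 8.61 and 8.71 CPM with PBS and 64, 59.8, 55.7 and 36.5 with flagellin. It was higher in 4 of 4 pairs, but the high PBS replicate 1 overlapped with the flagellin libraries and it did not pass (log2 2.09 ± 0.63, adjusted p = 0.129, edgeR). DESeq2 called SAA3 (adjusted p = 0.0169), as did edgeR in replicates 3 and 4 alone (0.0301).

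LCN2, which withholds iron from bacteria, was at 187, 52.7, 29.9 and 32.7 CPM with PBS and 114, 173, 54.8 and 32.6 with flagellin (adjusted p = 0.805, edgeR). DUOX2, an oxidase of the airway surface, was at 4.1 to 9.3 CPM with PBS and 6.15 to 10.1 with flagellin (adjusted p = 0.671, edgeR). None of 12 mucin and secretory granule genes passed, and 1 was called as raised in replicates 3 and 4 alone. MUC5AC, named by position, a gel-forming mucin of goblet cells, was at 2507, 525, 847 and 554 CPM with PBS and 2050, 1753, 542 and 636 with flagellin, 2 pairs higher and 2 lower (adjusted p = 0.923, edgeR). Within its set the value in PBS replicate 2 was low, as were that library's goblet cell markers given above. MUC5AC is itself a member of that list, and the part of the other markers was not tested. Over the 4 PBS libraries it was replicate 1, at 2507 CPM, that lay far from the others.

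Of 23 apoptosis and p53 target genes 4 rose and 2 fell. BTG2, named by position, an antiproliferative gene, was at 101, 60.7, 85.4 and 92.8 CPM with PBS and 322, 363, 218 and 154 with flagellin (log2 1.55 ± 0.25, SE, adjusted p = 0.00344, edgeR). PMAIP1, which encodes the BH3 protein NOXA, was at 19.8 to 23.1 CPM with PBS and 35.8 to 54.6 with flagellin (log2 1.09 ± 0.14, adjusted p = 0.000309, edgeR). GDF15, a secreted stress protein, rose by log2 1.11 and MCL1, which opposes NOXA, by 0.42. ZMAT3, an RNA-binding p53 target, fell by 0.51 on the log2 scale, and TP53INP1 by 0.37. The list therefore did not move one way, and its median log2 was 0.08.

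In the glutathione and oxidant defence list 1 of 22 genes rose and 1 fell. With 1.85% of all genes called, such counts are near the background in a list of this size. SOD2, the mitochondrial superoxide dismutase, was at 146 to 182 CPM with PBS and 248 to 395 with flagellin (log2 0.84 ± 0.12, adjusted p = 0.000988, edgeR). GCLM, the modifier subunit of glutathione synthesis, fell in 4 of 4 pairs by 0.39 on the log2 scale (adjusted p = 0.015, edgeR).

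BTG2, PMAIP1 and SOD2 were called without the replicate block. GDF15 was not called without PBS replicate 3 or 4 or flagellin replicate 1, 2 or 3 (adjusted p = 0.053 to 0.123, edgeR). MCL1 was not called without PBS replicate 3 or 4 or any 1 of the flagellin libraries (0.0937 to 0.279), nor with a block common to both times (0.0813). TP53INP1 was not called without PBS replicate 1, 2 or 3 or flagellin replicate 2, 3 or 4 (0.0577 to 0.184), and GCLM without PBS replicate 1, 2 or 3 or flagellin replicate 1, 2 or 3 (0.0508 to 0.129).

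The 94 lowered genes fell little and from higher levels than most genes, with a median PBS level of 66.0 CPM beside 22.3 for all genes tested and 46.0 for the raised genes. Their median exon length was 4786 bases, beside 3855 for all genes and 4030.5 for the raised genes. By the size of the fall the first was ND6, a complex I subunit of the mitochondrial genome, at 81.9, 113, 69.6 and 55.1 CPM with PBS and 42.2, 53.4, 23.7 and 45.2 with flagellin (log2 -0.99 ± 0.19, SE, adjusted p = 0.0115, edgeR). ID4, an inhibitor of helix-loop-helix transcription factors, was at 35.7, 50.8, 28.4 and 26.3 CPM with PBS and 21.4, 24.1, 17.7 and 14.9 with flagellin (log2 -0.84 ± 0.20, adjusted p = 0.0479, edgeR). In both, every flagellin library was below every PBS library. ND6 lies on the strand opposite to most mitochondrial genes, and with the use of strand in counting not given its reads cannot be told apart from antisense reads.

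NDUFC1, a nuclear complex I subunit named by position, fell by 0.83 on the log2 scale, C18orf54 by 0.78 and TMEM65, a mitochondrial inner membrane protein, by 0.75. DIPK2A, CCDC126, PANK1 (a kinase of coenzyme A synthesis), OTUD6B (a deubiquitinase) and TMEM170A made up the rest of the 10 with the largest fall, with log2 fold changes of -0.65 to -0.57. In 8 of these 10 the groups did not overlap, with C18orf54 and PANK1 the exceptions. Few of these calls were firm. Of the 10, DIPK2A was called in each of the 8 fits that left out 1 library; it was at 14.3, 12.8, 15.9 and 14 CPM with PBS and 8.33, 8.48, 9.03 and 10.4 with flagellin (log2 -0.65 ± 0.11, adjusted p = 0.00367, edgeR). CCDC126 was not called without PBS replicate 3 (adjusted p = 0.0689, edgeR), TMEM65 not without PBS replicate 3 (0.0776) or flagellin replicate 1 (0.0626) or 3 (0.0619), and ND6 not without PBS replicate 2 (0.0527) or 3 (0.0749) or flagellin replicate 1 (0.0565) or 3 (0.0801). The other 6 lost their calls in 5 to 7 of these fits, and C18orf54 (0.355), PANK1 (0.664) and TMEM170A (0.0850) also with a block common to both times.

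The 7 lowered genes called in all 8 of those fits, named here after their values were seen, were DIPK2A, FAM8A1, KLHL11, TBL1XR1, KCTD6, SERP1 (named by position) and ZMAT3. TBL1XR1, a subunit of the NCoR corepressor complex, was at 159, 140, 166 and 110 CPM with PBS and 97.2, 101, 95.5 and 95.6 with flagellin (log2 -0.55 ± 0.09, SE, adjusted p = 0.00232, edgeR). Its flagellin libraries were nearly level and all below the PBS libraries. KLHL11 and KCTD6 encode substrate adaptors of cullin ubiquitin ligases and fell by 0.55 and 0.51 on the log2 scale. SERP1, which protects membrane proteins in the endoplasmic reticulum, was at 285, 273, 179 and 145 CPM with PBS and 196, 200, 140 and 124 with flagellin, lower in 4 of 4 pairs. ZMAT3 was at 219, 262, 356 and 271 CPM with PBS and 165, 162, 207 and 243 with flagellin.

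Several raised genes were neighbours in the genome, at positions given by the deposited table, whose pig assembly is not given in the sources used here. CXCL8 (ENSSSCG00000008953) on chromosome 8 from 69932644 to 69935861, AMCF-II (ENSSSCG00000008957) from 70007995 to 70010425 and CXCL2 (ENSSSCG00000008959) from 70054756 to 70163415 lay on the plus strand next to each other among the tested genes. The unnamed gene ENSSSCG00000008954, from 70141611 to 70149557, lay inside the span of CXCL2 on the same strand and rose by log2 4.04. Reads could have been split between them, so their separate levels are uncertain. CXC chemokine genes are close copies of each other, and the same uncertainty holds for their counts.

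ICAM1 (chromosome 2, 69097009 to 69108205) and ICAM4 (69108889 to 69109961) were both raised, with log2 values of 1.61 and 2.28. On chromosome 17, SPATA2 (51489701 to 51500900), RNF114 (51513641 to 51531057) and SNAI1 (51546393 to 51554226) rose by log2 1.52, 0.60 and 3.07. STAT5A (chromosome 12, 20472037 to 20499166) and STAT5B (20498096 to 20574353) overlap on opposite strands and rose by 0.95 and 0.42, and reads of the shared end cannot be told apart. These neighbours were named after their values were seen, and no count of neighbours expected by chance was made. Other main genes lay apart: TNFAIP3 on chromosome 1 from 26473935 to 26489776, NFKBIA on chromosome 7 from 64507743 to 64511304, IRF1 on chromosome 2 from 134776124 to 134783819, CCL20 on chromosome 15 from 129172242 to 129176613, IL1A on chromosome 3 from 43718427 to 43731120, LIF on chromosome 14 from 47221486 to 47228273 and CD83 on chromosome 7 from 10359211 to 10387002. Each interval spans the gene's exons and introns, while the reads were counted over exons.

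Per length, as RPKM (counts scaled by exon length and library size), a few of the raised genes came to rank among the most abundant transcripts of the epithelium. NFKBIA went from a mean of 60.9 to 451 RPKM, from rank 841 to rank 68 of the tested genes. CXCL8 went from 22.4 to 440 RPKM, from rank 2690 to rank 71, and TNFAIP3 from 27.9 to 266 RPKM, from rank 2116 to rank 150. PLAU went from 135 to 361 RPKM and IER3 from 139 to 333 RPKM, both from high starting ranks of 316 and 303. In all, 21 of the 168 raised genes ranked among the 500 highest with flagellin and 8 with PBS. Others with steep rises stayed rare per length: CD83 reached 10.2 RPKM, IL20 7.70, TNF 7.18, VCAM1 3.33 and SNAI1 1.97. The order of the levels thus differed from the order of the fold changes.

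After 24 h of flagellin, in separate libraries, none of these genes was called. Flagellin replicate 2 stood apart at that time, with a mean log2 CPM of 9.55 over the squamous markers, against 7.02 in flagellin replicate 1 and 7.28 in PBS replicate 2. Its ciliated markers were at 0.54 (1.87 and 1.92 in those libraries) and its goblet markers at 3.74 (5.84 and 6.54), and over the 24 h comparison the goblet list had a median log2 of -1.43. In the same fit 0 of 14172 genes passed at 24 h by edgeR (0%), while 537 (3.79%) had an unadjusted p under 0.05. Without flagellin 24 h replicate 2 the count was again 0, with 349 at an unadjusted p under 0.05. Of the 168 genes raised at 2 h, 129 (76.8%) had a log2 fold change above 0 at 24 h, beside 52.7% of all genes tested, but the median was 0.09. Of the 94 lowered genes 78 (83%) were below 0 at 24 h, with a median of -0.09. The difference between the 2 h and 24 h effects, a test on libraries that share no control, was called for 40 genes (0.282% of those tested), all with the larger effect at 2 h, and 38 of them were genes raised at 2 h. None of the lowered genes was among them. Without the replicate block 6 genes were called, 42 were called without flagellin 24 h replicate 2, and 26 without flagellin 24 h replicate 4.

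The 5 genes with the smallest adjusted p for this difference were IRF1, TNFAIP3, NFKBID, RND1 and BIRC3. The effect on IRF1 at 2 h exceeded that at 24 h by log2 2.88 (adjusted p = 2.29e-07, edgeR), and at 24 h it was at 29.4, 30.2, 15 and 16.4 CPM with PBS and 42.3, 48.3, 21.6 and 18.6 with flagellin. TNFAIP3 differed by 2.69 (adjusted p = 1.74e-06) and at 24 h lay at 117, 114, 45.5 and 79.1 CPM with PBS and 154, 210, 85.6 and 80.2 with flagellin. RND1 differed by 4.27 (adjusted p = 2.89e-05, edgeR), with 24 h levels of 11.8, 12, 1.89 and 2.52 CPM against 17.5, 10, 2.05 and 2.16. IRF1 and TNFAIP3 were still higher than PBS in 4 of 4 pairs at 24 h, by log2 0.49 and 0.56, which did not pass, while RND1 had a log2 fold change of 0.06.

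The chemokines and PGLYRP2 differed in their values at 24 h, where none passed. CXCL8 at 24 h was at 30.6, 44.9, 8.01 and 15.9 CPM with PBS and 140, 130, 17.7 and 17.7 with flagellin, and the difference between the times was log2 3.05 (adjusted p = 0.0235, edgeR). CCL20 was at 8.99, 10.5, 0.835 and 1.68 CPM with PBS and 40.3, 42.5, 1.35 and 1.48 with flagellin, about 4-fold higher in replicates 1 and 2, and near PBS in replicates 3 and 4. PGLYRP2 was at 1.61, 2.4, 2.38 and 2.15 CPM with PBS and 9.04, 24.2, 3.52 and 4 with flagellin, higher in all 4 libraries than in any PBS library. For CCL20 and PGLYRP2 the difference between 2 h and 24 h did not pass (adjusted p = 0.174 and 0.859, edgeR). CCL2 was at 21.3, 15.4, 1.89 and 2.27 CPM with PBS at 24 h and 13.8, 2.65, 1.96 and 2.67 with flagellin, and its 2 effects differed by log2 3.24 (adjusted p = 0.0488, edgeR).

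**Figure D4:**
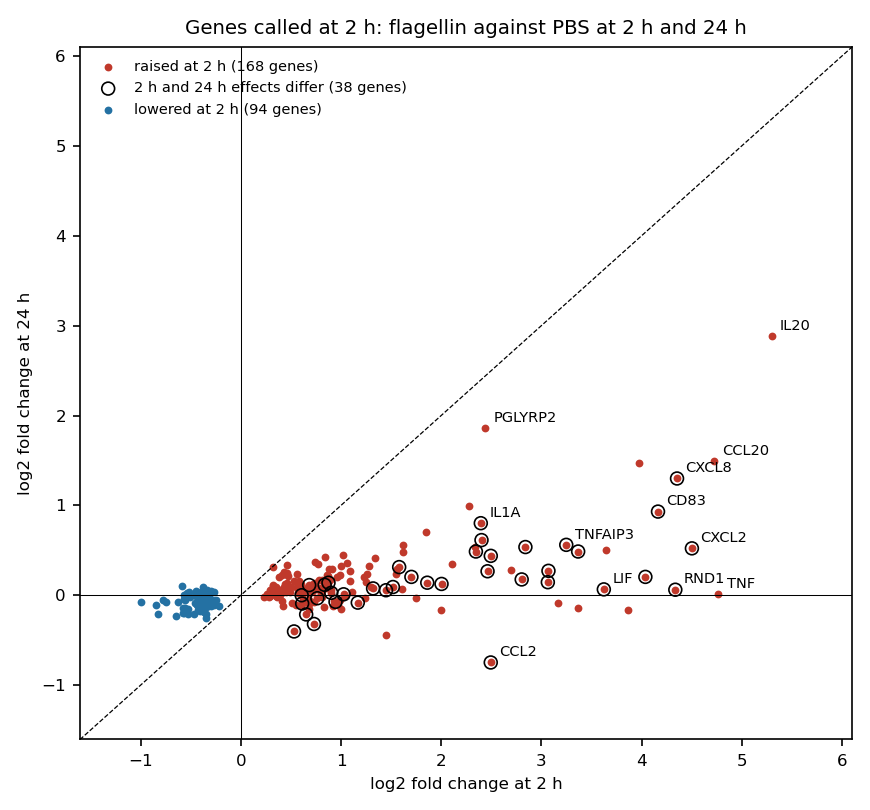
Each point is a gene raised (red, 168) or lowered (blue, 94) at 2 h, with its log2 fold change at 2 h on the horizontal and at 24 h on the vertical axis; the dashed line marks equal effects. Most points lie near 0 at 24 h, and circles mark the 38 raised genes whose effects at the 2 times differed at an adjusted p under 0.05.

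The 2 sets of replicates gave the same direction for every called gene. All 168 raised genes were above 0 and all 94 lowered genes below 0 in the effect of each set, where the sets together chose the genes, so this is a description. The median log2 fold change of the raised genes was 0.69 in replicates 1 and 2 and 0.92 in replicates 3 and 4, and 132 of 168 (78.6%) were higher in replicates 3 and 4, beside 53.5% of all genes tested. The lowered genes had medians of -0.44 and -0.34, and 73 of 94 (77.7%) fell more in replicates 1 and 2. In a test of the difference itself, on the 12 libraries at 2 h, edgeR called 0 of 14172 genes (0%), while 435 (3.07%) had an unadjusted p under 0.05. This fit estimated each treatment separately in each set, which left fewer residual degrees of freedom than the main fit. The count of 0 therefore does not show that the sets agreed. DESeq2 called 39, and edgeR without PBS replicate 1 called 24.

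The 5 named genes with the smallest p for this difference were NFKB1, CCL20, IRAK2, RNF19B and FBXO39. The effect on NFKB1 was log2 0.43 in replicates 1 and 2 and 1.59 in replicates 3 and 4, a difference of 1.16 ± 0.13 (SE, adjusted p = 0.318, edgeR). CCL20 differed by 2.66 ± 0.34 and IRAK2 by 1.53 ± 0.21 (adjusted p = 0.358 for both, edgeR). RNF19B, a ubiquitin ligase, was at 140, 165, 64 and 63.4 CPM with PBS and 260, 250, 261 and 209 with flagellin, so the libraries with the lower PBS level reached nearly the same level with flagellin. RNF19B was not called as raised without replicate 3 of either group (adjusted p = 0.0866 and 0.0635, edgeR). FBXO39, an F-box protein gene that was not called at 2 h, was at 2.16, 0.939, 1.05 and 3.68 CPM with PBS and 6.49, 4.9, 0.5 and 1.16 with flagellin, up in one set and down in the other.

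CXCL8, CCL20, CXCL2, AMCF-II and CCL2 all had PBS levels in replicates 3 and 4 below those in replicate 1. With flagellin CXCL8 and AMCF-II were higher in replicates 3 and 4 than in replicates 1 and 2, and CXCL2, CCL20 and CCL2 lower. TNFAIP3 by contrast had nearly the same effect in both sets, at log2 3.26 and 3.23. IL1A went the other way, at 2.73 in replicates 1 and 2 and 2.08 in replicates 3 and 4, as did BTG2 at 2.10 and 1.06. None of these differences passed the test, which does not show that the sets agreed.

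**Figure D5:**
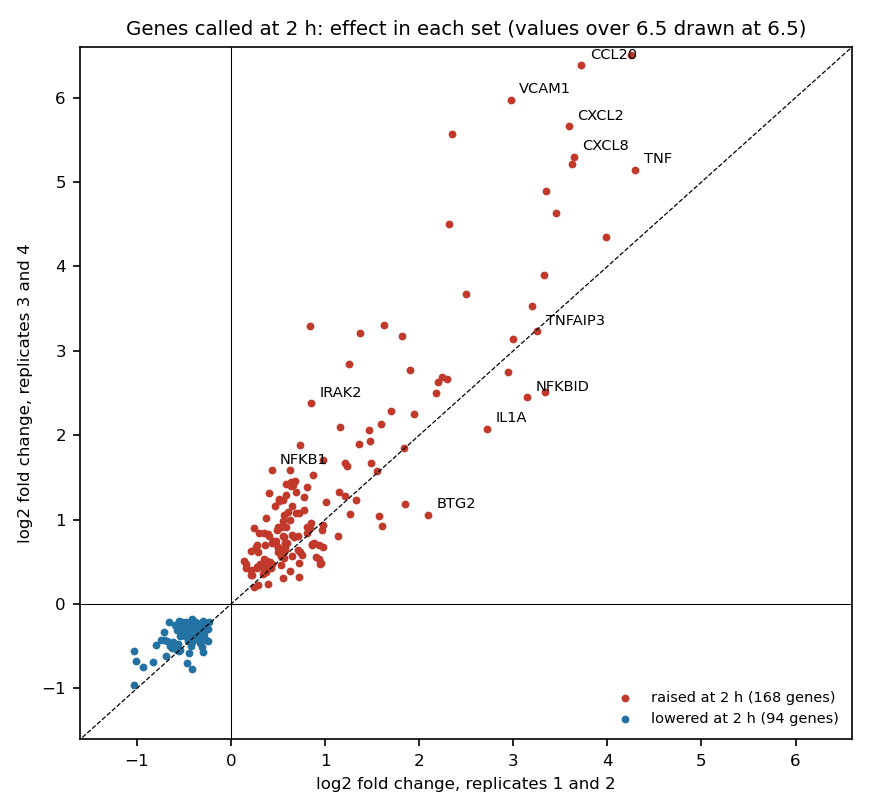
Each point is a gene raised (red, 168) or lowered (blue, 94) at 2 h, with its log2 fold change in replicates 1 and 2 on the horizontal and in replicates 3 and 4 on the vertical axis (1 gene, IL20, whose PBS libraries 3 and 4 were at 0, is drawn at the upper edge). Of the red points 132 lie above the dashed line of equal effects, with NFKB1 and IRAK2 well above it and IL1A and BTG2 below.

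Cultures given SB203580 before flagellin for 2 h provide levels to set beside these, and they share no library with flagellin alone or PBS although they share the block of the fit. No culture with SB203580 alone was analysed here, and replicate 1 of these cultures also had low ciliated markers, at a mean log2 CPM of 0.53. The genes raised by flagellin took 1.87% to 1.99% of counts there, between the PBS and flagellin libraries. They were chosen for the contrast between those groups, so the choice alone can lower their sum in other libraries. The same holds for the raised genes named next. PLAU was at 606, 687, 471 and 557 CPM, beside the 1058 to 1258 CPM of flagellin alone and 305 to 520 of PBS. TNFAIP3 was at 764, 881, 505 and 527 CPM and IL1A at 149, 152, 173 and 164 CPM, each between the PBS and flagellin libraries. CSF1, at 52.3, 54.8, 128 and 154 CPM, compared with 54.5 to 102 CPM with flagellin alone, and CCL2, at 54, 57.1, 9.07 and 15 CPM, was near flagellin alone in replicates 1 and 2 only. PTGS2 was at 21.1, 34.2, 86.7 and 102 CPM, below the PBS library of the same number in 3 of 4. These values are given side by side, and their differences were not tested here.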

How the data were processed

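The deposited table holds raw counts of reads over the exons of each gene, not normalized by the authors. The submitters' processing notes name STAR 2.4.0a, Subread 1.4.6-p1 and featureCounts. The only build they name is that of mouse (GRCm38), while the identifiers belong to pig. Neither the assembly of the pig nor the strand setting is stated in those sources. The 5988 features that are not pig genes were left out, and 25880 pig genes remained. Symbols came by identifier for 14857 genes and by position (reciprocal overlap of at least 0.5 with exactly 1 RefSeq gene, Sscrofa11.1) for 1606; by both routes 92.6% of 12808 genes had the same symbol or a synonym.

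Counts were scaled with TMM (0.937 to 1.03 over the 8 libraries) and filtered with filterByExpr, which left 14172 genes. edgeR 4.0.16 (R 4.3.3) fitted all 24 libraries with 1 term per group and the replicate number nested in time, which left 12 residual degrees of freedom; Benjamini-Hochberg p-values run over all genes, two-sided. Standard errors were taken from the fold change (log2, unsigned) over the root of the F statistic. The script was tested on simulated counts. Libraries with the same number deviated together from their group means (correlations of 0.706, 0.500, 0.640 and 0.794), which came mainly from the 2 sets, since flagellin replicate 2 correlated at 0.763 with PBS replicate 1. No 2 libraries of a group were duplicates (chi-square per gene of 16.2 to 239.2). DESeq2 1.42.0 was an alternative.

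Members and gene lists were chosen with earlier results of these data known. The genes named are list members that passed, the 20 that rose most and the 10 that fell most in 4 of 4 pairs, a set named whatever their result (IL36G among them had no row with that name), and the 5 with the smallest p for each of the 2 differences; others are said to be named after their values were seen.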

Additional observations from a re-analysis of the deposited data

Results flagged for a closer look

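In 216 groups of 4 libraries tested at 2 h, 12 (5.56%) had 1 library far from the other 3, where chance alone flags about 1 in 20 groups. All 12 were in the PBS group, and 7 of them were high in PBS replicate 1: MUC5AC at 2507 CPM against 525 to 847 in the others, LCN2 at 187 against 29.9 to 52.7, SAA3 at 37.6 against 5.44 to 8.71, AMCF-II at 20.1 against 3.32 to 4.80, LIF at 19.0 against 3.80 to 6.35, TNF at 3.68 against 0 to 0.469, and MYBPH at 0.669 against 0.0299 to 0.105. In PBS replicate 2, CSF2 was high at 12.2 CPM, TLR5 was low at 0.375 CPM, and the endothelial list had a mean log2 CPM of 2.72 against 3.31 to 3.34. In PBS replicate 3, TMEM65 was high at 96.3 CPM and ZC3H12C at 38.3 CPM.

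The effect of flagellin at 2 h differed from that at 24 h in 40 genes by the edgeR interaction test, and 21 of them are named genes, all with the larger effect at 2 h. On the log2 scale the difference was 4.27 for RND1, 3.98 for CXCL2, 3.56 for LIF, 3.24 for CCL2, 3.23 for CD83 and 3.05 for CXCL8. It was 2.92 for TNFAIP2, 2.88 for IRF1, 2.80 for SNAI1, 2.69 for TNFAIP3, 2.63 for NFKBID, 2.30 for NFKBIA, 2.20 for MAP3K8 and 2.06 for NFKBIZ. It was 1.86 for ZC3H12A, 1.79 for CSF1, 1.72 for NFKBIE, 1.59 for IL1A, 1.50 for BIRC3, 1.39 for PLAU and 1.27 for PLAUR.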

How the results depend on the processing

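The counts of genes called rest on how replicates were matched and on single libraries, while the direction of the called genes did not. With no replicate block 46 genes were called (42 raised, 4 lowered), with a replicate block common to both times 151 (114 and 37), with DESeq2 552 (287 and 265), in the paired fit of the 8 libraries alone 161 (124 and 37) and in the 12 libraries at 2 h 180 (149 and 31). A term for the set in place of the replicate number called 318 (182 and 136), RLE scaling 261 (165 and 96) and no count filter 219 (157 and 62). Replicates 1 and 2 alone gave 16 raised and 0 lowered (736 genes at an unadjusted p under 0.05 in edgeR), and replicates 3 and 4 alone 265 (238 and 27). Leaving out 1 library in turn gave 95 to 297 genes, 86 to 155 raised and 9 to 159 lowered. No gene was called in the opposite direction under any of these settings. For the difference between 2 h and 24 h, no replicate block gave 6 genes, DESeq2 92, and leaving out 1 library 26 to 56. Chosen after seeing the data, leaving out 1 library of the 24 h comparison in turn gave 0 genes at 24 h each time. For the difference between sets DESeq2 called 39 and leaving out 1 library 0 to 24. The causes were not tested, except that the fits on 1 set use fewer libraries.

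Of 1664 values of the 93 named and tested genes under an alternative, 1316 kept direction and side of the threshold and 12 changed sign, all in genes not called. FBXO39 was at -0.064 with the set term, -0.0050 with DESeq2, -1.42 in replicates 3 and 4 alone, and -0.46, -0.53 and -0.26 without PBS replicate 1, PBS replicate 2 or flagellin replicate 2 (range with 1 library left out -0.53 to 1.09). DUSP1 was at -0.051 in replicates 1 and 2 alone and -0.051 without flagellin replicate 2 (range -0.051 to 0.25). MUC5AC was at -0.22 in replicates 3 and 4 alone, and -0.25 and -0.04 without PBS or flagellin replicate 2 (range -0.25 to 0.40). MYD88 was at -0.043 without PBS replicate 1 (range -0.043 to 0.10). Among named genes with an adjusted p under the alternative, calls were ended for 52 with no replicate block and 27 in the 8 libraries alone. They were ended for 16 in the 12 libraries at 2 h and 15 with a block common to both times. The count was 5 with the set term, 3 with no count filter and 0 with DESeq2 or RLE scaling. DESeq2 gave no adjusted p for GPR35 and MYBPH, both called in the main fit, so its 0 leaves them out. Of the 168 raised genes DESeq2 called 164 as raised. The 32 genes raised in all 16 fits that kept both sets included TNFAIP3, NFKBIA, NFKBID, NFKBIE, NFKB2, BIRC3, IRF1, CD83, ICAM1, IL1A, IL20, CSF1, TNFSF15, PLAUR and ZC3H12A; no lowered gene was called in all 16. Depth limits the rarest genes, such as TLR5, IL6 and IL17C. The levels of IL6 and IL17C were within a few counts of the floor in some libraries. TLR5 was above the floor in its lowest library, PBS replicate 2, at 0.375 CPM.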
